A study of Mus musculus with 4 samples.

Results

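The genes described here run mitosis: 53 genes for mitotic entry, the spindle checkpoint, the kinetochore, the spindle, chromosome condensation and cytokinesis. They were taken from a fixed list of symbols, and all 53 were found among the 30041 genes scored in each sample. RNA-seq was done on purified splenic B cells from C57BL/6 mice after 72 h with LPS, a bacterial cell wall component that drives resting B cells into division. The control mice were Nfkbiz fl/Δ and the cKO mice were Nfkbiz fl/Δ Mb1 cre/+, with 2 samples per group. Both groups thus carry 1 deleted (Δ) and 1 floxed Nfkbiz allele, and in the cKO mice Cre driven by the Cd79a (Mb1) promoter removes the floxed allele in B-lineage cells. Nfkbiz encodes IκB-ζ, a nuclear regulator of NF-κB target genes. The age, sex and number of mice behind each sample were not given in the sources used here. The p-values below therefore rest only on the spread between these samples, estimated for each gene in part from the other genes tested.

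A cell that leaves G2 activates CDK1 with cyclins A and B, condenses its chromosomes, attaches them to spindle microtubules through kinetochores, and divides once the anaphase-promoting complex has destroyed securin and cyclin B. Most of these transcripts are made late in the cell cycle and are scarce in resting lymphocytes, so that in a culture their level follows the share of cells in cycle. The question put to the list was whether these transcripts were lower in cKO than in control B cells at the time at which division after LPS was followed in the study with CFSE, a dye that is shared out between daughter cells. The CFSE measurements are flow cytometry and were not analysed here. In bulk RNA, fewer dividing cells and less mitotic RNA per dividing cell cannot be told apart.

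The deposited value is a score per gene without a stated unit. Low scores multiplied by exon length fell near whole steps in 75.4 to 81.9% of cases, as reads per exon base would. The library size was chosen for the best fit to such steps, and a part of the cases would fall near a step under any unit. Scores are compared between genes here as levels per length, which is an inference. On the same inference the libraries held about 17520000 to 19920000 reads, and the mitotic genes about 165 to 23363 reads each (median 2210). The targeted gene, Nfkbiz, was at 0.0241 and 0.0226 in controls and at 0.0127 and 0.0116 in cKO B cells, a difference of -0.94 in log2 units (SE 0.0956, limma adjusted p = 0.0282, but 0.130 without cKO 1, 0.0885 without cKO 2, 0.203 with no filter on low values and 0.0509 with no trend of variance on level). The B cell label was met by the defining markers, since Ms4a1 scored 0.387 to 0.458, Cd79b 0.565 to 0.789 and Pax5 0.109 to 0.117. Cd79a, the locus that carries Cre in the cKO mice, was at 0.667 and 0.743 against 0.415 and 0.407. The summed score of 10 T and NK cell markers was 0.0430 and 0.0579 in control and 0.0855 and 0.0786 in cKO samples, most of it from Lck. Cd3d, Cd3e and Cd3g stayed at or below 0.0006 in every sample. The summed score of 9 myeloid markers was 0.213 and 0.196 in control and 0.221 and 0.238 in cKO samples, most of it from Itgam. Itgam scored 0.141 and 0.150 in control and 0.135 and 0.158 in cKO samples. Mpeg1 scored 0.0427 and 0.0286 against 0.0259 and 0.0353, while S100a9 was listed at 0 in all samples and Csf1r stayed at or below 0.00345. Lyz2, another of the 9, was at 0.0205 and 0.0112 in control and 0.0485 and 0.0329 in cKO B cells. Of the erythroid markers, Slc4a1 was listed at 0 in all samples, and Klf1 and Alas2 stayed at or below 0.00041 and 0.00035. Of 4 plasma cell markers in the files, the sums were 0.305 and 0.249 in control and 0.272 and 0.223 in cKO samples, but the genes differed in direction. Igj, with 0.134 and 0.0783 against 0.0552 and 0.0572, was lower in cKO B cells. Sdc1, with 0.00398 and 0.00418 against 0.00814 and 0.00604, was higher, and the log2 fold changes of Irf4 and Xbp1 were 0.15 and 0.11. The part of these other cell types in the results on mitotic genes was not tested.

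All 53 mitotic genes passed the filter on low values, which asked for 1 or more samples with a score of 0.005 or higher and kept 9727 genes in total. The estimated log2 fold change of cKO over control, on the scale of log2(score + 0.0001), was below 0 for 53 of the 53, compared with 51.8% of all genes tested. Its median was -0.31, which is 80.6% of the control level, while the median over all genes was -0.01. The values ran from -0.58 for Cdc25c to -0.06 for Cdc25b, and the middle of the list, between its quartiles, spanned -0.42 to -0.20. Cdc25c reached 0.005 only in its control samples, with 0.00429 and 0.00485 in cKO samples. It also had the fewest inferred reads of the list, 165 in cKO 2. Spc24, which passed the filter in all samples, was at -0.58 as well. None of the 53 passed the threshold of 0.05 on the adjusted p of limma's moderated test with Benjamini-Hochberg adjustment over all genes, and the lowest adjusted p was 0.0691, for Bub1b. At that threshold 1.25% of all genes were lower in cKO B cells. At an unadjusted p under 0.05, 33 of the 53 (62.3%) were lower and 0 higher, against 11.5% of all genes lower. The groups were fully apart, with both cKO samples under both controls, for 48 of the 53 (90.6%), against 30.1% of all genes. With 2 samples a group, the smallest two-sided p of an exact permutation test is 0.33 for a single gene, and transcripts of 1 program move together, so the 53 genes are not 53 independent observations. The median was weaker, at -0.23 without control 1 and -0.24 without cKO 1. It was stronger, at -0.39 without control 2 and -0.40 without cKO 2. Each of these fits has 1 sample in a group.

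**Figure D1:**
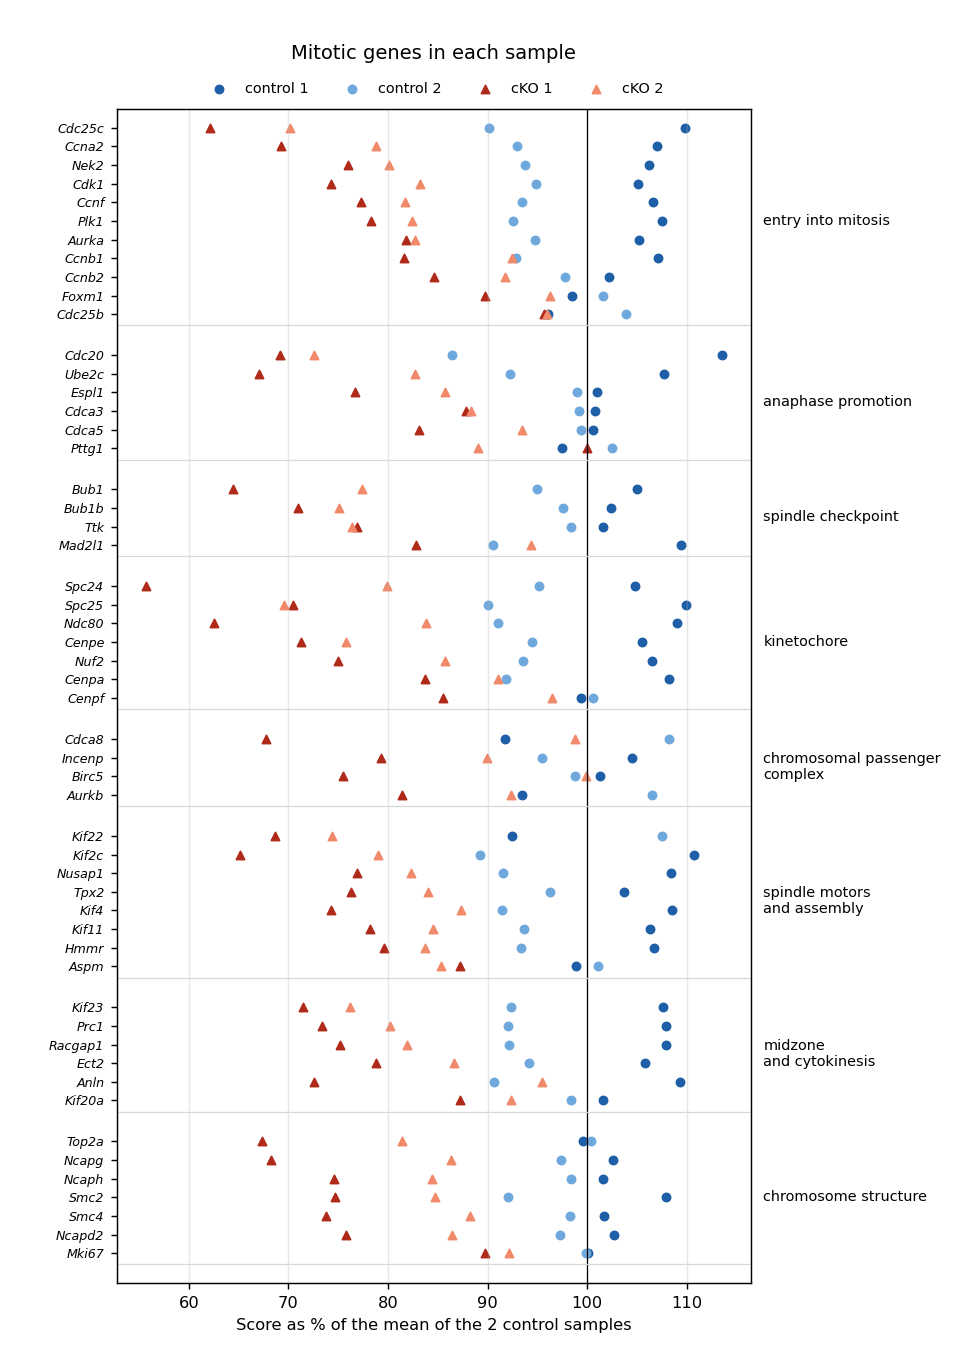
Score of each mitotic gene in each of the 4 samples, as a percentage of the mean of the 2 control samples (x axis), with genes in rows grouped by role; circles are control and triangles are cKO samples. Both triangles lie left of both circles for 48 of the 53 genes.

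The samples within a group also differed in an ordered way over these genes. Control 1 scored above control 2 for 44 of the 53 genes, against 48.1% of all genes, and cKO 2 scored above cKO 1 for 49 of them, against 53.7%. The full order control 1, control 2, cKO 2, cKO 1 from high to low held for 39 of the 53, against 15.6% of all genes. In log2 units the mean level of the 53 genes relative to the mean of the 4 samples was 0.22 in control 1, 0.10 in control 2, -0.08 in cKO 2 and -0.24 in cKO 1. The gap between the nearest samples of the groups, control 2 and cKO 2, was little larger than the gaps within the groups. The spread between replicates was also wider than over all genes, with a median SD of 0.117 between control samples and 0.113 between cKO samples in log2 units, against 0.0891 and 0.0783 over all genes.

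**Figure D2:**
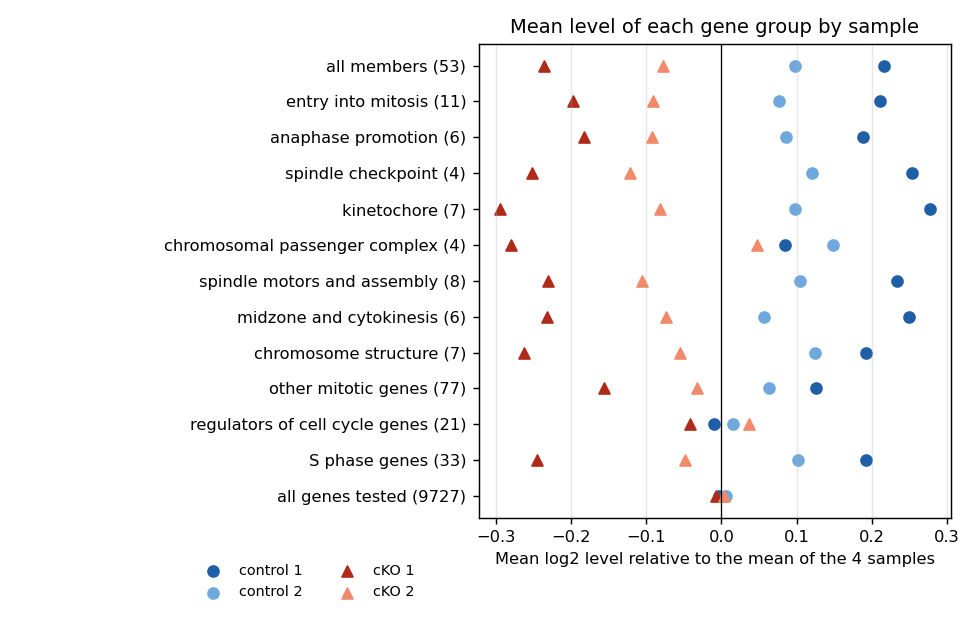
Mean log2 level of each gene group relative to the mean of the 4 samples (x axis), with the number of genes in brackets; circles are control and triangles are cKO samples. The 53 mitotic genes are ordered control 1, control 2, cKO 2, cKO 1, and the 9727 genes tested lie together near 0.

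The genes that start mitosis comprise CDK1 with its cyclins, the CDC25 phosphatases that activate it, and the kinases PLK1, Aurora A (Aurka) and NEK2 that act on the centrosomes. All 11 had both cKO scores below both control scores, against 30.1% of all genes, with a median log2 fold change of -0.31. Of the 11, 7 had an unadjusted p under 0.05, against 11.5% of all genes lower. Both counts include Cdc25c, which passed the filter only through its control samples. Ccna2, cyclin A2, scored 0.0717 and 0.0623 in control and 0.0464 and 0.0528 in cKO samples. Its log2 fold change was -0.43 (SE 0.112, limma adjusted p = 0.119), with a 95% confidence interval from -0.71 to -0.16. Cdk1 itself scored 0.0499 and 0.0450 in control and 0.0352 and 0.0395 in cKO samples, giving a log2 fold change of -0.34 (SE 0.101, limma adjusted p = 0.143). For both genes the cKO samples were low and the groups were apart. Ccnb1, cyclin B1, had the highest level of the group, with 0.0865 and 0.0749 in control and 0.0659 and 0.0746 in cKO samples. The second cKO value reached almost the second control value, and the log2 fold change was -0.20 (SE 0.111, limma adjusted p = 0.339). Ccnb2, the other B-type cyclin, had a similar log2 fold change of -0.18. The 2 phosphatases lay at opposite ends of the list, with that limit on the filter for Cdc25c. Cdc25c scored 0.00759 and 0.00623 in control and 0.00429 and 0.00485 in cKO samples, giving a log2 fold change of -0.58 (SE 0.172, limma adjusted p = 0.143). Cdc25b scored 0.0308 and 0.0333 in control and 0.0307 and 0.0308 in cKO samples, and its difference of -0.06 was smaller than its SE of 0.0860. Foxm1, the forkhead factor that drives transcription of many of the other genes listed, scored 0.0201 and 0.0207 in control and 0.0183 and 0.0196 in cKO samples. Its log2 fold change was -0.10, with an interval from -0.32 to 0.11.

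**Figure D3:**
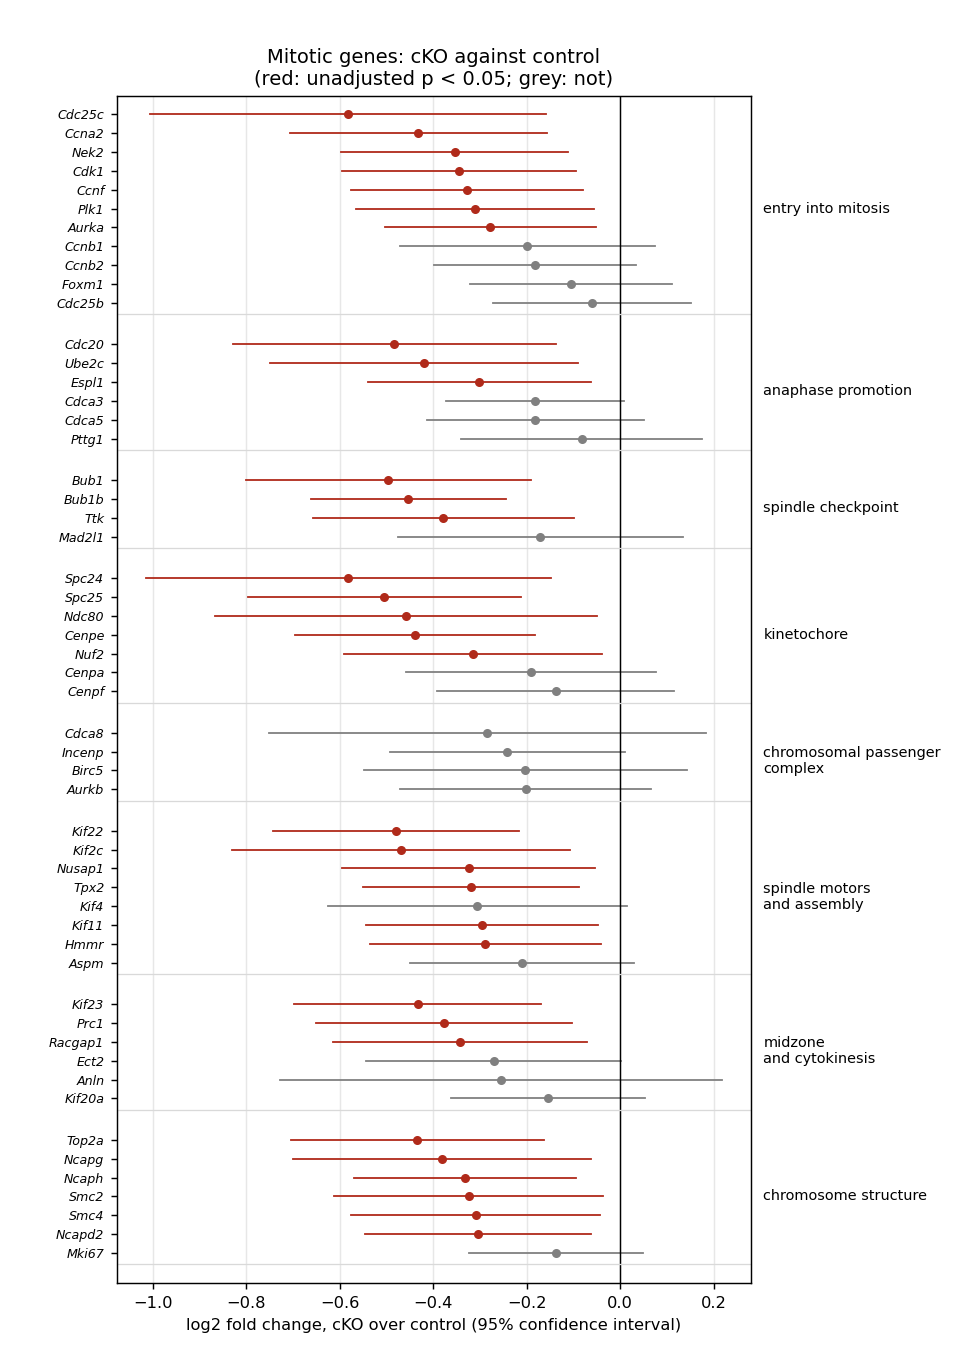
Log2 fold change of each mitotic gene, cKO over control (x axis, points) with its 95% confidence interval from limma (lines), grouped by role; red marks an unadjusted p under 0.05. All 53 points lie left of 0, from -0.58 to -0.06, and none passed the adjusted threshold.

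Exit from mitosis needs CDC20, which activates the anaphase-promoting complex, and UBE2C, the ubiquitin-conjugating enzyme that works with it. Cdc20 scored 0.0670 and 0.0510 in control and 0.0408 and 0.0428 in cKO samples, giving a log2 fold change of -0.48 (SE 0.140, limma adjusted p = 0.140). Ube2c scored 0.1003 and 0.0859 in control and 0.0624 and 0.0770 in cKO samples, giving a log2 fold change of -0.42 (SE 0.134, limma adjusted p = 0.161). Both genes were highest in control 1, and their groups did not overlap. The substrate side of this step differed less. Pttg1, securin, which holds back separase until anaphase, scored 0.0118 and 0.0124 in control and 0.0121 and 0.0108 in cKO samples, so the groups overlapped, and the log2 fold change was -0.08 (SE 0.105). Espl1, separase itself, had a log2 fold change of -0.30 (SE 0.0968, limma adjusted p = 0.164), and Cdca5, sororin, which protects cohesion, -0.18. Cdca3 was at -0.18 as well. Of the 6 genes, 3 had an unadjusted p under 0.05, against 11.5% of all genes lower.

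The spindle checkpoint holds anaphase until every kinetochore is attached. Its kinase-like component Bub1b (BUBR1) had the lowest p of the list. It scored 0.0422 and 0.0402 in control and 0.0292 and 0.0309 in cKO samples, giving a log2 fold change of -0.45 (SE 0.0850, limma adjusted p = 0.0691). Leaving out a sample in turn gave values from -0.49 to -0.41 for Bub1b. Bub1, the kinase, was at -0.50 and Ttk, the kinase MPS1, at -0.38, and in each the control and cKO scores were apart. Mad2l1, the inhibitor of CDC20, was the exception among the 4. It scored 0.0734 and 0.0607 in control and 0.0555 and 0.0632 in cKO samples, with cKO 2 above control 2, and its log2 fold change was -0.17 (SE 0.124, limma adjusted p = 0.447).

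The kinetochore genes had the lowest median of the 8 roles, -0.44, a description that was not tested against the other roles. Ndc80, Nuf2, Spc24 and Spc25 encode the 4 subunits of the NDC80 complex, which grips the microtubule end. Spc25 scored 0.0214 and 0.0175 in control and 0.0137 and 0.0135 in cKO samples, giving a log2 fold change of -0.50 (SE 0.118, limma adjusted p = 0.103). Spc24 scored 0.0520 and 0.0472 in control and 0.0276 and 0.0396 in cKO samples, giving a log2 fold change of -0.58 (SE 0.176). The cKO samples of Spc24 were far apart, and without cKO 1 the value was -0.32. Ndc80 was at -0.46 and Nuf2 at -0.31, so all 4 subunits had an unadjusted p under 0.05, as had Cenpe, the kinetochore motor, at -0.44 (SE 0.104). Of all genes, 11.5% were lower at that threshold. Cenpa, the histone H3 variant that marks the centromere, had the highest level of the group. It scored 0.0926 and 0.0786 in control and 0.0717 and 0.0779 in cKO samples, giving a log2 fold change of -0.19 (SE 0.109, limma adjusted p = 0.350). Cenpf, at -0.14 (SE 0.103), was nearest to 0.

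The chromosomal passenger complex, in which Aurora B is held by INCENP, survivin and borealin, corrects wrong attachments and later directs cytokinesis. None of its 4 genes had an unadjusted p under 0.05, against 11.5% of all genes lower. Birc5, survivin, had the highest score of the whole list, 0.143 and 0.139 in control and 0.107 and 0.141 in cKO samples. Its cKO 2 value lay between the control values, and the log2 fold change of -0.20 (SE 0.140, limma adjusted p = 0.428) rested on cKO 1, since it was -0.001 without that sample. Cdca8, borealin, also overlapped, with 0.0512 and 0.0604 in control and 0.0378 and 0.0551 in cKO samples. Incenp had a log2 fold change of -0.24 (SE 0.102, limma adjusted p = 0.238). Aurkb scored 0.0542 and 0.0618 in control and 0.0472 and 0.0535 in cKO samples, giving a log2 fold change of -0.20 (SE 0.109, limma adjusted p = 0.326). In both the groups were apart by a narrow margin.

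Among the 8 spindle motors and assembly factors, the 2 groups were apart throughout, against 30.1% of all genes apart with cKO lower. Of the 8, 6 had an unadjusted p under 0.05, against 11.5% of all genes lower. Kif22, the chromokinesin that pushes chromosome arms outwards, scored 0.0385 and 0.0448 in control and 0.0286 and 0.0310 in cKO samples. Its log2 fold change was -0.48 (SE 0.107, limma adjusted p = 0.0948). Here control 2 was the highest sample, unlike in most of the list. Kif2c, the microtubule depolymerase MCAK, was at -0.47 (SE 0.146) and Kif11, the motor that separates the spindle poles, at -0.30 (SE 0.101). Nusap1, a microtubule-bundling protein and the most abundant of the 8 per length, scored 0.0557 and 0.0470 in control and 0.0395 and 0.0423 in cKO samples, giving a log2 fold change of -0.32 (SE 0.110, limma adjusted p = 0.179). Tpx2, which activates Aurora A on the spindle, had the same value to 2 decimals. Hmmr was at -0.29, Kif4 at -0.31 and Aspm, a spindle pole protein, at -0.21 (SE 0.0973).

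In anaphase the central spindle is built by PRC1 and by centralspindlin, the complex of KIF23 and RACGAP1, which recruits the exchange factor ECT2 to start the furrow. Kif23 scored 0.0248 and 0.0213 in control and 0.0164 and 0.0175 in cKO samples, giving a log2 fold change of -0.43 (SE 0.107, limma adjusted p = 0.113). Racgap1, its partner, was at -0.34 (SE 0.110) and Prc1 at -0.38 (SE 0.111), both with the groups apart. Ect2 was at -0.27, with an interval from -0.54 to 0.00. Anln, the furrow scaffold anillin, overlapped between groups, with 0.00731 and 0.00606 in control and 0.00485 and 0.00638 in cKO samples. Kif20a scored 0.0319 and 0.0309 in control and 0.0274 and 0.0290 in cKO samples, giving a log2 fold change of -0.16 (SE 0.0841, limma adjusted p = 0.33).

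Chromosome structure genes include the condensin subunits Smc2, Smc4, Ncapd2, Ncapg and Ncaph, which compact the chromosomes, and Top2a, the topoisomerase that untangles them. Top2a scored 0.1308 and 0.1319 in control and 0.0884 and 0.1069 in cKO samples, giving a log2 fold change of -0.43 (SE 0.110, limma adjusted p = 0.116). The control samples were nearly equal and both cKO samples were low. The condensin subunits spanned -0.38 for Ncapg to -0.30 for Ncapd2. All 5 had an unadjusted p under 0.05, against 11.5% of all genes lower. Mki67, the Ki-67 protein that coats mitotic chromosomes and is widely used to mark cycling cells, differed less. It scored 0.1266 and 0.1264 in control and 0.1136 and 0.1166 in cKO samples, giving a log2 fold change of -0.14 (SE 0.0756, limma adjusted p = 0.338). The log2 fold change of Mki67 stayed between -0.16 and -0.12 when any 1 sample was left out, but was -0.03 with quantile normalization.

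The promoters of these genes were searched for motifs common in late cell cycle genes. The list was chosen by mitotic function, so an excess of such motifs says nothing about the samples. A link between the motifs and the order of samples was not tested. Late cell cycle promoters commonly hold a CHR (cell cycle genes homology region), the site of the MuvB complexes that repress in resting cells and activate in dividing cells, and CCAAT boxes, the sites of NF-Y. RefSeq promoter windows of GRCm38.p6, from 250 bases before to 50 bases after the start, were matched by symbol to 44 of the 53 genes, in 46 windows. Those of the 5 genes with the lowest adjusted p among members that hold both motifs are printed 5′ to 3′ on the gene's strand, with TTTGAA and CCAAT on either strand in capitals. They lie at chr2:118597961-118598260 (Bub1b, plus strand), chr7:127042371-127042670 (Kif22, minus strand), chr2:69206164-69206463 (Spc25, minus strand), chr9:61946750-61947049 (Kif23, minus strand) and chr11:99024140-99024439 (Top2a, minus strand).
Bub1b: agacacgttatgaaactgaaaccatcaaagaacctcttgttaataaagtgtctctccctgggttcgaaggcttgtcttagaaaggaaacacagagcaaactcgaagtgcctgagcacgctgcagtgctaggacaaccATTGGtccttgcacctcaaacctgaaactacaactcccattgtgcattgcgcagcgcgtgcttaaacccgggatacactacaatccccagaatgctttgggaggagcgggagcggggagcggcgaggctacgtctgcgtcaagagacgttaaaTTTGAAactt
Kif22: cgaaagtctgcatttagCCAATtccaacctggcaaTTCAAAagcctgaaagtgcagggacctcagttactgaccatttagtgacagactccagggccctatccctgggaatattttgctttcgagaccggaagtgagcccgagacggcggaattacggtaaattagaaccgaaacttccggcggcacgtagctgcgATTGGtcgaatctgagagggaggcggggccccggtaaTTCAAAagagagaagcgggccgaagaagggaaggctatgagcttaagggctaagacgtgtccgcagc
Spc25: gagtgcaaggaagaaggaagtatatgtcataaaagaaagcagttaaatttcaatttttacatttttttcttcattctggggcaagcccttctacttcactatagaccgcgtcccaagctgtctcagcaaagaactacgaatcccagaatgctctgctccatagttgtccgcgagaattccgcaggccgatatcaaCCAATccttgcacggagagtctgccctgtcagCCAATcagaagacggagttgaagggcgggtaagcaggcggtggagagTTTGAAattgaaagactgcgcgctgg
Kif23: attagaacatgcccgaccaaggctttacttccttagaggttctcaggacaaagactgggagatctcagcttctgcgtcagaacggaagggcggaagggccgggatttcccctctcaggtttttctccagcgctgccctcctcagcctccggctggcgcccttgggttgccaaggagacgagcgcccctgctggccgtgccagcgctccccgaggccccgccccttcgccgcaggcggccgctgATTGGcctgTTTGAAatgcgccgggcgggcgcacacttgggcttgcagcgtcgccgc
Top2a: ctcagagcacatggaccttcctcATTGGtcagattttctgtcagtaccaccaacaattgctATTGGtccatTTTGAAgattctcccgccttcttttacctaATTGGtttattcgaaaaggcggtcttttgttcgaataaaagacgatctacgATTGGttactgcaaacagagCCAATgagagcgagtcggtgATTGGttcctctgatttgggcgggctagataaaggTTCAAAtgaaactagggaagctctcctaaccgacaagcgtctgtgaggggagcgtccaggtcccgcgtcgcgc

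Bub1b and Kif23 hold 1 CHR and 1 CCAAT box each, and Top2a holds 2 CHR matches and 6 CCAAT boxes. Over all 46 windows, TTTGAA was found in 35 (76.1%), compared with 17.9% of the 32851 windows in the table and 12.5% of the 8185 windows of genes tested here. CCAAT was found in 36 (78.3%), compared with 37.4% and 38.3%, and both motifs in 31 (67.4%), compared with 6.95% and 5.38%. The variant TTCGAA was in 4 windows (8.70%, against 1.56% of all and 2.36% of those tested), and the E2F sites TTTGGCGC or TTTCCCGC were in 2 (4.35%, against 1.56% and 3.27%), close to the share among genes tested. All were searched on both strands, and none of these strings contains another. Of the 46 TTTGAA matches in member windows, 34 (73.9%) lay within 50 bases of the start on either side, against 25.3% of matches in all windows. Within the list, the median difference was -0.31 on the log2 scale both for the 29 genes with a CHR and a CCAAT box and for the other 15. A match is a stretch of letters and not a measured binding site.

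**Figure D4:**
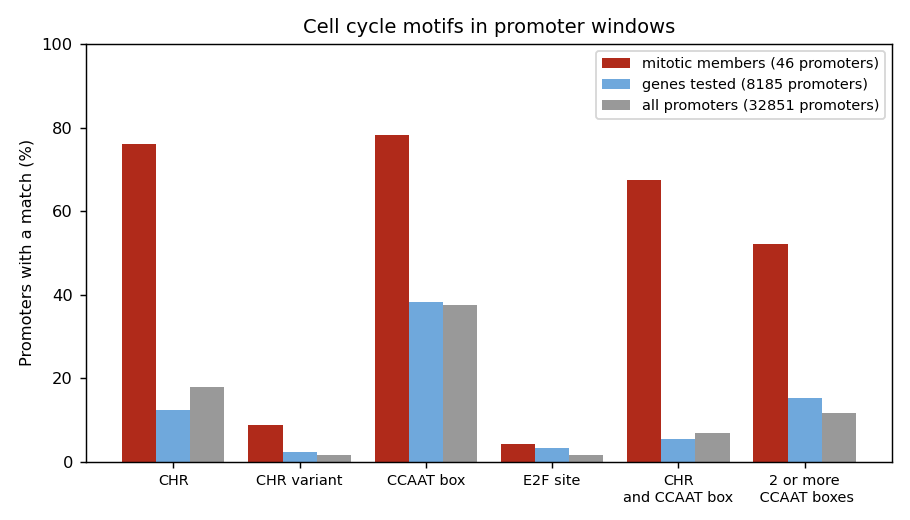
Percentage of promoter windows with at least 1 match (y axis) for each motif, in the windows of mitotic genes (red), of all genes tested (blue) and of all genes in the table (grey). A CHR and a CCAAT box occur together in 67.4% of the mitotic windows and 6.95% of all windows.

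A second list held 83 other mitotic genes, among them the remaining kinetochore, cohesin, anaphase-promoting complex and motor genes, of which 77 passed the filter. The log2 fold change was below 0 for 64 of the 77, against 51.8% of all genes, with a median of -0.18. At an unadjusted p under 0.05 by limma, 21 were lower in cKO B cells and none higher, against 11.5% and 10.8% of all genes. Psrc1, a microtubule-binding protein, was the 1 gene that passed the adjusted threshold. It scored 0.0252 and 0.0192 in control and 0.00916 and 0.0102 in cKO samples, and fell by 1.18 on the log2 scale (SE 0.149, limma adjusted p = 0.0331). This call was lost without the trend of variance on level (adjusted p = 0.0639 by limma), without a filter (0.205), without cKO 1 (0.192) and without cKO 2 (0.0885). Both cKO scores of Psrc1 were far below both control scores, but the call depended on these settings. The study had already listed Psrc1 among genes lower in cKO B cells in these same samples, so the call is not independent support.

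The S phase list, with replication helicase, polymerase and nucleotide synthesis genes, gave values close to those of the mitotic list. Of its 33 genes 32 were below 0, against 51.8% of all genes, and the median was -0.28. The mean level was 0.19 and 0.10 in control 1 and control 2 and -0.25 and -0.05 in cKO 1 and cKO 2. Pola1, the catalytic subunit of DNA polymerase α, scored 0.0253 and 0.0212 in control and 0.0116 and 0.0114 in cKO samples, and fell by 1.01 on the log2 scale (SE 0.112, limma adjusted p = 0.0294), a call lost in the same settings (limma adjusted p = 0.0579, 0.203, 0.160 and 0.0921). Pola1 is also among the genes that the study had listed as lower in cKO B cells in these same samples. The difference between the lists was not tested.

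Of 23 regulators of cell cycle genes, 21 passed the filter, 12 were below 0, the median was -0.03, and 0 passed the adjusted threshold of limma. At an unadjusted p under 0.05, 2 of these regulators were lower and 4 higher, against 11.5% and 10.8% of all genes. Of the lower ones, E2f5 passed the filter only through control 1 (0.00502), with 0.00407 in control 2 and 0.00281 and 0.0032 in cKO samples. The extremes, named after their values were seen, were Mybl2, the B-MYB partner of MuvB, and Btg2, an antiproliferative gene. Mybl2 scored 0.0459 and 0.0441 in control and 0.0252 and 0.0358 in cKO samples, giving a log2 fold change of -0.58 (SE 0.168, limma adjusted p = 0.140). Btg2 scored 0.0764 and 0.101 in control and 0.148 and 0.130 in cKO samples, giving a log2 fold change of 0.66 (SE 0.150, limma adjusted p = 0.100). Neither passed the adjusted threshold, although the groups were apart for both.

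**Figure D5:**
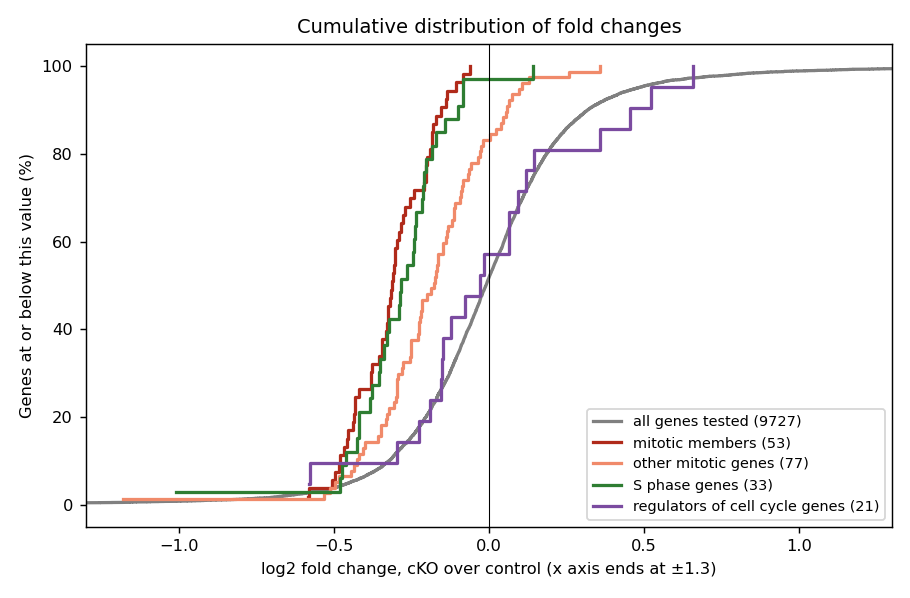
Cumulative percentage of genes (y axis) at or below each log2 fold change of cKO over control (x axis), for all 9727 genes tested and for 4 lists. The mitotic and S phase curves run close together left of 0, and the curve of the 21 regulators follows that of all genes near the middle.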

How the data were processed

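Purified splenic B cells were cultured with LPS for 72 h, and poly(A) RNA of 2 control and 2 cKO samples was sequenced. Per the labels and methods, the authors used CASAVA 1.8, TopHat2 2.0, Bowtie, SAMtools and bedtools on mm9, and removed rRNA and tRNA reads. The deposited score per gene has no stated unit, and the step from reads to score is not given in the sources used here. Strand was not stated for the counting, and exons of 12 of the 53 genes (Ccna2, Ccnf, Cdc25b, Foxm1, Cdc20, Ube2c, Cdca8, Kif4, Nusap1, Kif20a, Ncapg and Top2a) overlap another gene in GENCODE on NCBIM37, so reads there may be shared.

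Scores were tested in R 4.3.3 with limma 3.58.1 (lmFit, then eBayes with its trend option) after log2 transformation with a pseudocount of 0.0001, and p-values were adjusted by Benjamini and Hochberg over the 9727 genes that reached 0.005 in any sample, with 0.05 as the threshold. The fit was checked on simulated data with independent noise, for recovery of large changes, size of the estimates and share of false calls. How often differences as small as those of the mitotic genes are detected is not reported here. Tables were made with Python 3.11.15 and pandas 2.3.3. Samples carry numbers 1 and 2 in both groups but are not stated to be pairs, so no block was used in the main fit. Deviations of same-numbered samples correlated at -0.145 (Pearson) and -0.291 (Spearman) across genes. Depth was read from the step of low scores of genes with 600 to 1600 exon bases. The members and lists were chosen with earlier results of these data known. For each role, the genes given in full are those with the lowest adjusted p, the highest mean score and the log2 fold change nearest to 0, and other members are named where they complete a complex. Some marker genes are not reported here. Alternatives were another pseudocount, other filters, no trend, equal medians, quantile normalization, blocks and leaving out each sample.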

Additional observations from a re-analysis of the deposited data

How the results depend on the processing

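The log2 fold change of the mitotic genes stayed below 0 for all 53 in the settings that tested all of them, except that 52 were below 0 without cKO 2, where Pttg1 reached 0.00 (it ran from -0.166 to 0.00 when a sample was left out). Their median ran from -0.314 to -0.305 over the other settings that tested all 53, and from -0.40 to -0.23 when a sample was left out. For the 17 genes kept by the filter above 0.05 the median was -0.284. None passed the adjusted threshold, as in the values reported, with the pseudocount of 0.001, no filter, the filter above 0.05, no variance trend, equal medians, quantile normalization or the replicate block. With a sample left out, from 0 to 6 passed (Kif22 without control 1, and Ccna2, Cdc20, Bub1b, Spc25, Kif2c and Kif23 without control 2), and from 7 to 38 had an unadjusted p under 0.05. The groups were then apart for 49 to 52, but with 3 samples this is an easier condition, met by 37.1 to 43% of all genes. The filter above 0.05 kept 17 of the 53, of which 8 had an unadjusted p under 0.05 and 14 had the groups apart, against 19.5% and 43% of all genes under that filter.

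At an adjusted p under 0.05, 122 of all genes tested were lower in cKO B cells and 79 were higher. The numbers were 0 and 0 with no filter by limma (1538 and 1665 at an unadjusted p under 0.05), 22 and 11 without the variance trend, 88 and 35 with the filter above 0.05 and 180 and 177 with the replicate block. When a sample was left out they ranged from 0 to 391 lower and from 0 to 439 higher, with 0 and 0 by limma without cKO 1 (519 and 428 at an unadjusted p under 0.05) and without cKO 2 (982 and 767). Crossed numbers (control 1 with cKO 2), chosen after seeing the data because same-numbered samples deviated in opposite directions, gave 230 lower and 212 higher in a crossed replicate block, among them 4 mitotic genes. The cause of these changes was not tested. Of 633 values of 56 named genes under the alternatives, 609 stayed on the side of the threshold they had, 12 lost and 11 gained the call, and 1, that of Pttg1, was no longer below 0. The depth is inferred, and 2 samples per group limit every call.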
